A study of Mus musculus with 12 samples.

Results

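The genes described here are 10 transcripts that extracellular signal-regulated kinase (ERK) signalling induces: the transcription factor genes Etv4 and Etv5, the inhibitor genes Spry1, Spry2, Spry4, Spred1 and Spred2, and the phosphatase genes Dusp4, Dusp5 and Dusp6. They were chosen by name from the Ensembl genes of the deposited table, and all 10 matched 1 row each among 53465 genes. The group was chosen from measured values: it was proposed after the changes with nicotinamide riboside in these libraries were known, so those changes are given as a description, with no p-value for a single member. Where a member's call in the fit of the whole table is mentioned for NR, it supports nothing here. RNA came from mouse bone marrow hematopoietic stem cells (HSCs) in 12 bulk libraries. Nicotinamide riboside (NR) is a vitamin B3 compound that cells convert to NAD.

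There were 4 groups of 3 samples: long-term HSCs (LT-HSCs) with 1 mM NR, LT-HSCs in control culture, short-term HSCs (ST-HSCs) with 1 mM NR and ST-HSCs in control culture. Every sample was cultured for 2 days in Stemline II with 100 ng/ml SCF, the ligand of the receptor KIT, and 2 ng/ml of Flt3 ligand, so ERK-activating ligands were present in NR and control cultures alike. NR was renewed after 24 h. Both populations were sorted as cells positive for Kit, Sca1 and CD150 and negative for lineage markers and CD48. LT-HSCs were taken as CD34-negative and ST-HSCs as CD34-positive. The labels read here give no strain, age or sex of the mice and no pooling of animals. Nor do they say whether the samples of a group are separate mice or cultures, so the p-values reflect the spread among these samples alone, and that spread may be technical.

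In the ERK pathway, receptor tyrosine kinases such as KIT and FLT3 load RAS with GTP, and RAF, MEK and ERK kinases then activate each other in turn. ERK switches on genes of its own brakes: Sprouty and Spred proteins act on RAS and RAF activation, and dual-specificity phosphatases (DUSPs) remove the activating phosphates from ERK. Etv4 and Etv5 encode ETS-family transcription factors of the PEA3 group, whose transcripts, like those of Spry4 and Dusp6, are commonly read as gauges of ERK activity. In hematopoietic stem cells KIT signalling is needed for maintenance and drives division in culture.

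Upstream sequences are shown for Dusp5, Dusp6 and Etv5, which were higher, nearly level and lower with NR. Each is the 250 bases before the RefSeq gene start (GRCm38.p6), 5′ to 3′ on the gene's strand: Dusp5 at chr19:53528895-53529144 (plus strand), Dusp6 at chr10:99262981-99263230 (plus strand) and Etv5 at chr16:22439571-22439820 (minus strand, the first of 2 listed starts). Capitals mark CArG boxes, the element that serum response factor recognises.
Dusp5: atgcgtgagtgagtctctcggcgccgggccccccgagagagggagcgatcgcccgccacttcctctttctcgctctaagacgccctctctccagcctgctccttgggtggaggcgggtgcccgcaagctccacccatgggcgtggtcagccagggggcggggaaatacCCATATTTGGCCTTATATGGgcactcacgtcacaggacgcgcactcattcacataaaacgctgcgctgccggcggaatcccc
Dusp6: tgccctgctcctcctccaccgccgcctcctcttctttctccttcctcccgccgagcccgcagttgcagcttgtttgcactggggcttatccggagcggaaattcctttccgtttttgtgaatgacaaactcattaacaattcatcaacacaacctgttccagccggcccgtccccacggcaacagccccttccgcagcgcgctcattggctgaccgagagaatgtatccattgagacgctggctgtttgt
Etv5: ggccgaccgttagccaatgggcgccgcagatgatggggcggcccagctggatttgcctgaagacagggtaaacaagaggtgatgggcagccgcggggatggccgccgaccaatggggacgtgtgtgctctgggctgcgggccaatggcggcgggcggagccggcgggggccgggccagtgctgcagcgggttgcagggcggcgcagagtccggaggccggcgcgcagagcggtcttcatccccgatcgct

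Dusp5 held 2 CArG boxes that abut each other, starting 82 and 72 bases before the start, and the other 7 windows held 0. This element was added to the search after the windows had been seen. Among all 32851 RefSeq windows of 300 bases (250 before the start and 50 after it), 1.63% held one. The other motifs searched on both strands were the ETS letters CCGGAAG (8.86% of all windows), the cyclic AMP element TGACGTCA (1.79%), the AP-1 letters TGANTCA (7.81%) and the Capicua letters TGAATGAA and TGAATGGA (1.3% and 1.21%). None of these was found in the 8 windows of the 7 members with an entry, which says only that these letters are not in those windows. The Capicua letters with C in place of G as the second base were not part of the search. Read on the opposite strand, such letters do occur in the Dusp6 and Spry2 windows. The result therefore does not show that Capicua elements are absent. Etv4, Spry4 and Dusp4 had no entry.

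In the GENCODE M21 annotation (GRCm38) the 10 genes lay on 9 chromosomes, with Etv4 and Spred2 both on chromosome 11. Etv4 (ENSMUSG00000017724) spans chr11:101769742-101785371 on the minus strand and Etv5 (ENSMUSG00000013089) chr16:22381309-22439719, also on the minus strand. The phosphatase genes are on the plus strand, Dusp4 (ENSMUSG00000031530) at chr8:34807297-34819894, Dusp5 (ENSMUSG00000034765) at chr19:53529109-53542431 and Dusp6 (ENSMUSG00000019960) at chr10:99263231-99267489. Exons of Spry1 shared 710 bases with a gene model on the opposite strand, Gm42922, which had 7 counts over all libraries against 761 for Spry1. Dusp5 shared 547 exonic bases with an antisense transcript model that had no row in the deposited table. No source used here gives the strand setting of the counting, so reads of Dusp5 and of that model cannot be told apart.

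Per kilobase of annotated exon, Dusp6 had the highest level of the 10 in every group, at 41.6 ± 2.91 and 41.1 ± 1.57 CPM per kb (CPM is a gene's count per 1000000 gene counts of its library, after scaling) in NR and control LT-HSCs, and 49.7 ± 2.69 and 49.0 ± 1.79 in NR and control ST-HSCs (mean ± SD, n = 3). Etv5 and Dusp4 came next, with means over the 12 libraries of 22.1 and 18.2 CPM per kb. Their order depended on the group: in NR LT-HSCs Dusp4 (21.8 to 24.1 CPM per kb) and Etv5 (19.7 to 23.7) overlapped, while in control ST-HSCs Dusp4 (12 to 13.4) lay below Etv5 (22.0 to 22.7). The order of the others also depended on the culture. With NR, Dusp5 averaged 6.92 CPM per kb in LT-HSCs and 8.06 in ST-HSCs, above Spred2 (5.76 and 6.04) without overlap. In control culture Dusp5 averaged 4.33 in LT-HSCs and 3.55 in ST-HSCs, against 5.62 and 5.85 for Spred2, with overlap in LT-HSCs. Spred1 averaged 3.52 to 4.15 and Spry4 1.61 to 3.32 over the 4 groups. Etv4 averaged 1.04 in NR LT-HSCs and 0.810 in NR ST-HSCs, below Spry2 (1.40 and 1.38), with overlap in LT-HSCs. In control culture Etv4 averaged 4.22 in LT-HSCs and 3.87 in ST-HSCs, and its libraries overlapped those of Spred1. Spry1 had the lowest mean in each group (0.628 to 0.847), though it overlapped Etv4 in NR ST-HSCs. At 36 to 102 counts per library the changes of Spry1 and Spry2 were the least precise. All 10 passed the low-count filter that kept 19830 genes.

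**Figure D1:**
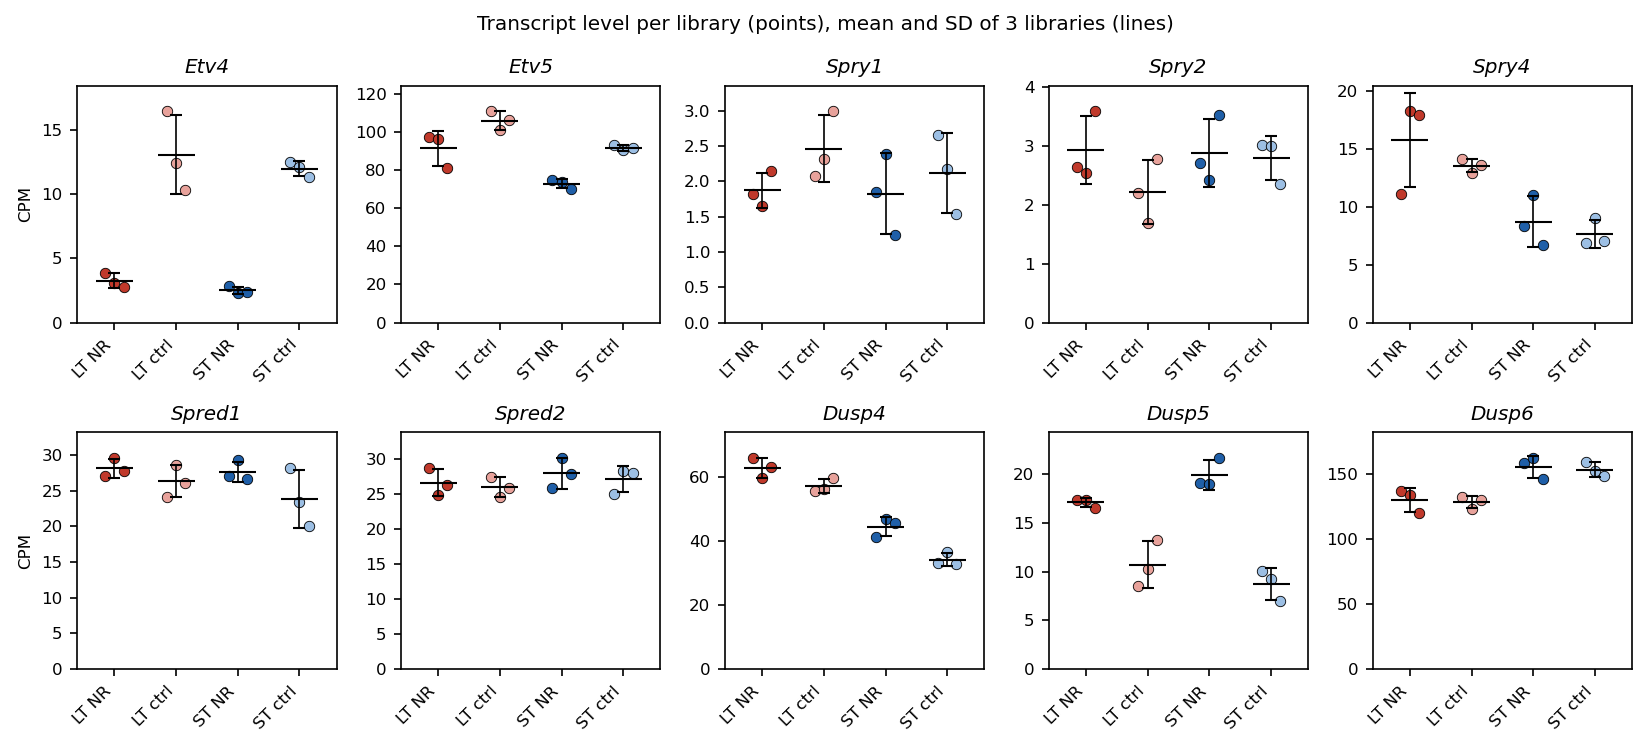
Level of each of the 10 genes in CPM (vertical axes, from 0) in the 12 libraries. Points are libraries, lines are the mean and SD of 3 libraries, and groups run from NR LT-HSCs to control ST-HSCs. Etv4 is low in all 6 NR libraries (2.29 to 3.88 CPM) and Dusp5 is high in them (16.6 to 21.7 CPM).

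Etv4 was the member that moved furthest with NR, to 0.248 times the control level in LT-HSCs and 0.210 times in ST-HSCs. It stood at 3.88, 3.12 and 2.73 CPM in NR LT-HSCs, against 16.5, 12.5 and 10.4 CPM in control LT-HSCs. In ST-HSCs the values were 2.84, 2.29 and 2.42 CPM with NR, against 12.5, 12.1 and 11.4 CPM in control. The 6 NR libraries all lay below the 6 control libraries with no overlap, a gap between 3.88 and 10.4 CPM. On the log2 scale the change was -2.01 ± 0.19 in LT-HSCs and -2.25 ± 0.19 in ST-HSCs (edgeR estimate ± SE). The values rest on 70 to 132 counts per NR library and 291 to 541 per control library. In these bulk samples fewer cells of a type and less RNA per cell cannot be told apart.

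Etv5, the closest relative of Etv4 in the list, was lower with NR too, but by far less. Its levels were 97.2, 96.3 and 81.0 CPM in NR LT-HSCs, against 111, 101 and 106 CPM in control LT-HSCs. In NR ST-HSCs they were 74.7, 73.9 and 70.1 CPM, against 93.3, 90.4 and 91.6 CPM in control ST-HSCs. Groups did not overlap in either cell type. The log2 change was -0.21 ± 0.07 in LT-HSCs and -0.33 ± 0.08 in ST-HSCs.

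Of the 3 phosphatase genes, Dusp5 and Dusp4 were higher with NR in ST-HSCs without overlap, and Dusp6 was nearly level. Dusp5, which encodes a nuclear phosphatase specific for ERK and is known in human cells as a p53 target as well as an ERK target, was higher with NR. Its levels were 17.4, 17.4 and 16.6 CPM in NR LT-HSCs, against 8.52, 10.3 and 13.3 CPM in control LT-HSCs. In ST-HSCs they were 19.1, 19.0 and 21.7 CPM with NR, against 10.1, 9.25 and 6.95 CPM in control. All 6 NR libraries lay above all 6 control libraries, with log2 changes of 0.68 ± 0.16 in LT-HSCs and 1.18 ± 0.16 in ST-HSCs (ratios of 1.60 and 2.27).

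Dusp4, another nuclear phosphatase that acts on ERK and other MAP kinases, was called higher with NR in ST-HSCs. There it stood at 41.1, 47.0 and 45.5 CPM, against 33.0, 36.6 and 32.9 CPM in control, a log2 change of 0.38 ± 0.08 without overlap. In LT-HSCs the levels were 66.0, 59.7 and 63.0 CPM with NR, against 55.5, 56.4 and 59.9 CPM in control. Those groups overlapped in 1 library each (59.7 and 59.9 CPM), with a log2 change of 0.14 ± 0.08.

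Dusp6, which encodes the cytoplasmic ERK phosphatase, was nearly level. NR LT-HSCs had 137, 134 and 120.0 CPM, against 132, 123 and 130.4 CPM in control LT-HSCs. In ST-HSCs it had 158, 163 and 146 CPM with NR, against 159.7, 152 and 149 CPM in control. The groups overlapped, and the log2 change was 0.02 ± 0.07 in each cell type, with 95% intervals of -0.13 to 0.17 in both.

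Among the Sprouty genes, whose products block RAS activation under receptor tyrosine kinases, NR and control libraries overlapped in every case. Spry4 had 11.1, 18.3 and 18.0 CPM in NR LT-HSCs, against 14.1, 13.0 and 13.7 CPM in control LT-HSCs. In ST-HSCs it had 8.38, 11.1 and 6.69 CPM with NR, against 6.85, 9.04 and 7.07 CPM in control. The single low NR library lay below all LT-HSC controls, and the log2 change was 0.21 ± 0.20 in LT-HSCs and 0.19 ± 0.21 in ST-HSCs. Spry1 ranged from 1.65 to 2.14 CPM with NR and 2.07 to 2.99 CPM in control in LT-HSCs, and from 1.24 to 2.38 and 1.53 to 2.65 CPM in ST-HSCs (log2 changes of -0.39 ± 0.31 and -0.21 ± 0.31). Spry2 ranged from 2.54 to 3.58 CPM with NR and 1.69 to 2.78 CPM in control in LT-HSCs, and from 2.41 to 3.52 and 2.36 to 3.01 CPM in ST-HSCs (0.40 ± 0.26 and 0.04 ± 0.25).

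The Spred genes, which encode Sprouty-related proteins that bring the RAS inhibitor neurofibromin to the membrane, also overlapped between NR and control. Spred1 had 27.0 to 29.6 CPM with NR and 24.2 to 28.6 CPM in control in LT-HSCs, and 26.7 to 29.3 and 20.01 to 28.2 CPM in ST-HSCs. Spred2 had 24.9 to 28.7 CPM with NR and 24.5 to 27.4 CPM in control in LT-HSCs, and 25.8 to 30.1 and 24.9 to 28.3 CPM in ST-HSCs. Log2 changes of the pair ran from 0.04 to 0.21.

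**Figure D2:**
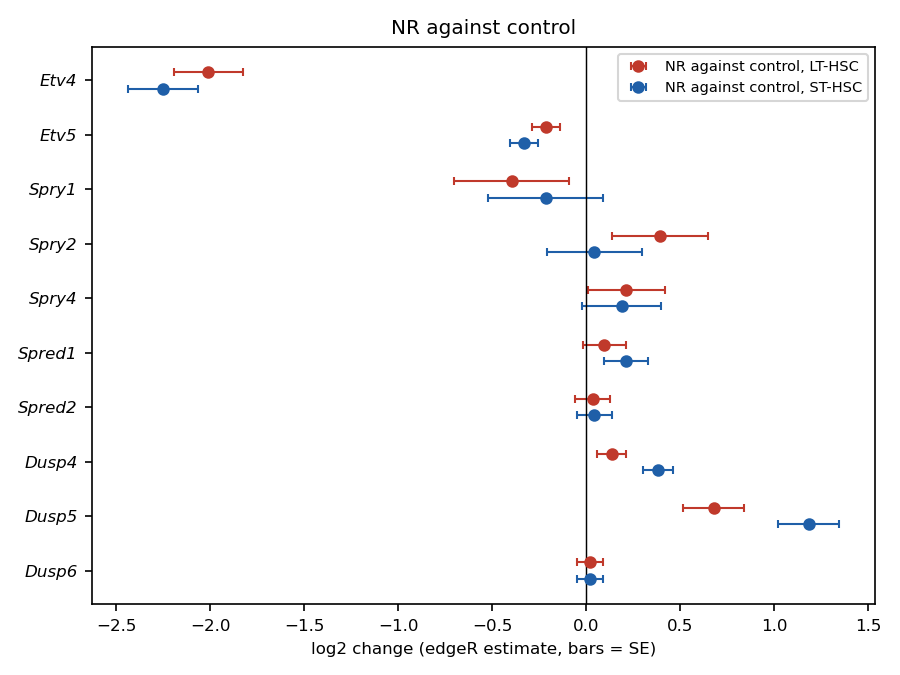
Log2 change of NR against control (horizontal axis, edgeR estimate with SE bars) for the 10 genes, in LT-HSCs (red) and ST-HSCs (blue). Etv4 lies near -2 in both cell types, Dusp5 lies at 0.68 and 1.18, and Dusp6 and Spred2 lie within 0.05 of 0.

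Over the list, the calls went both ways. By the rule used for the whole table (edgeR quasi-likelihood test, Benjamini-Hochberg adjusted p under 0.05 over all genes tested), 1 of the 10 was called lower (Etv4) and 1 higher (Dusp5) in LT-HSCs, where 7.58% of all genes tested were called lower and 2.38% higher. In ST-HSCs 2 were called lower (Etv4 and Etv5) and 2 higher (Dusp4 and Dusp5), against 11.1% and 5.82% of all genes. Libraries did not overlap for 2 genes that were lower (Etv4 and Etv5, where 15.9% of genes tested were so in LT-HSCs and 20.9% in ST-HSCs). They did not overlap for 1 higher gene in LT-HSCs (8.57% of genes tested) and 2 in ST-HSCs (11.9%). Because the genes were chosen with these comparisons known, nothing is read from these counts. The median log2 change over the list was 0.07 in LT-HSCs and 0.04 in ST-HSCs, beside 0.04 and -0.03 over all genes tested. With relative log expression factors in place of TMM, the share of whole-table calls that were higher was 37.4% rather than 23.9% in LT-HSCs and 51.7% rather than 34.5% in ST-HSCs, with the same count of members called. Without control LT-HSC sample 1 or 2 the call of Dusp5 in LT-HSCs ended (log2 changes of 0.54 to 0.86 with any 1 library left out). Without NR LT-HSC sample 2 or NR ST-HSC sample 3 that of Etv5 in ST-HSCs ended (-0.35 to -0.23), as it did without the low-count filter.

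Sample 3 of each NR group stood apart in the share of reads outside annotated genes: 28.5% in NR LT-HSCs and 26.2% in NR ST-HSCs, against 8.69% to 17.0% in the other 10 libraries. Without both, the log2 change of Etv4 was -1.88 in LT-HSCs and -2.14 in ST-HSCs, and that of Dusp5 was 0.72 and 1.19. Dusp4 was then at 0.16 and 0.44. Etv5 was at -0.11 in LT-HSCs and -0.23 in ST-HSCs, where its call ended. Library totals ran from 24589718 to 35456821 gene counts.

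**Figure D3:**
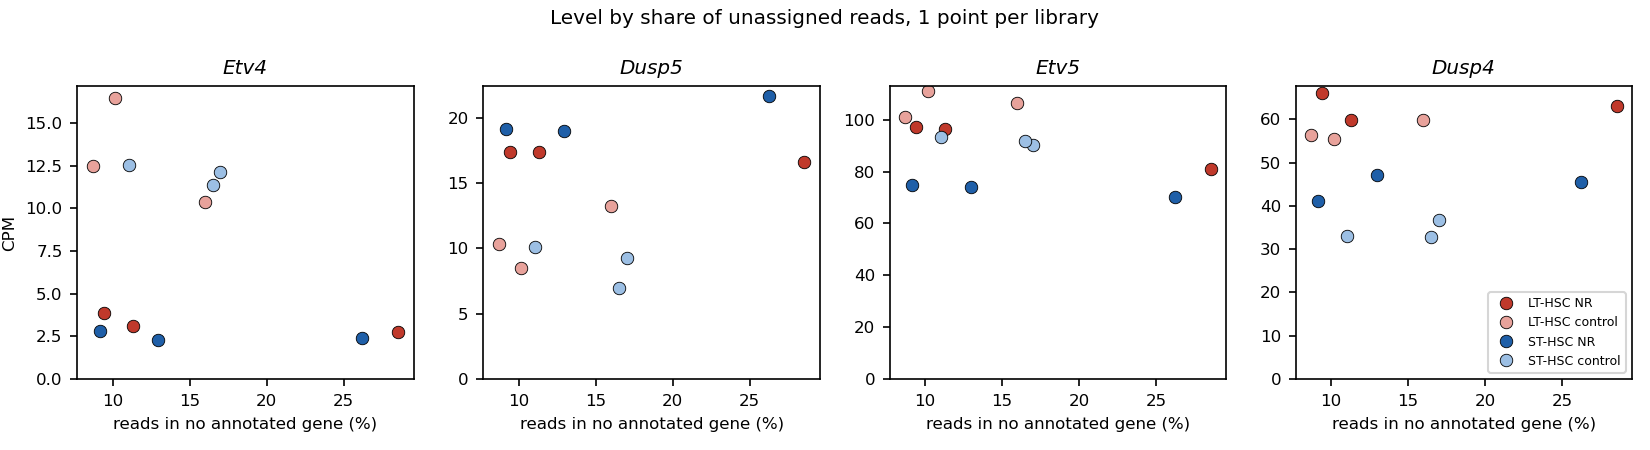
Level in CPM (vertical axes, from 0) of Etv4, Dusp5, Etv5 and Dusp4 against the share of reads outside annotated genes (horizontal axes, percent), 1 point per library, coloured by group. NR libraries at 9.17% to 13.0% unassigned reads show the low Etv4 and high Dusp5 as do the 2 NR libraries above 20%.

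Marker transcripts of other cell types also moved with NR. The summed level of 6 monocyte and macrophage markers ran from 332 to 428.5 CPM in NR LT-HSCs, against 318 to 353 CPM in control LT-HSCs, and from 362 to 442 CPM in NR ST-HSCs, against 273 to 289 CPM in control ST-HSCs. In ST-HSCs 3 of these 6 rose (Cd68, Lyz2 and Tyrobp), where 5.82% of all genes tested rose. In LT-HSCs 1 did (Cd68), where 2.38% of all genes tested did. Lyz2 made up most of each sum. Summed megakaryocyte and platelet markers (5 genes) ran from 1578 to 2190 CPM in NR LT-HSCs, against 2432 to 2767 CPM in control, and from 1634 to 2135 CPM in NR ST-HSCs, against 2677 to 2949 CPM in control. Stromal and endothelial markers (7 genes) summed to 35.9 to 45.2 CPM in NR LT-HSCs, against 48.3 to 57.1 CPM in control, and to 31.4 to 46.9 CPM in NR ST-HSCs, against 63.9 to 71.9 CPM in control. In LT-HSCs the stromal list was mixed, with a median log2 change of 0.83 and the lower sum coming from Col1a2 (-0.51), Pdgfrb (-0.68) and Kdr (-0.24). Its other 4 genes, Col1a1, Cxcl12, Lepr and Cdh5, averaged under 1 CPM over the 12 libraries and had changes of 0.83 to 2.54 that were not called. In ST-HSCs the median of the list was -0.68. Megakaryocyte markers that fell numbered 2 of 5 in LT-HSCs and 3 of 5 in ST-HSCs, and stromal ones 1 and 2 of 7, where 7.58% and 11.1% of all genes tested fell. Erythroid markers (5 genes) summed to 66.6 to 75.8 CPM in NR LT-HSCs, against 91.4 to 97.0 CPM in control, and to 33.3 to 39.5 CPM in NR ST-HSCs, against 49.8 to 60.1 CPM in control. Lymphoid markers (6 genes) summed to 7.81 to 9.42 CPM in NR LT-HSCs, against 17.2 to 22.9 CPM in control, and to 32.2 to 37.7 CPM in NR ST-HSCs, against 74.8 to 79.6 CPM in control. Mast cell sums (4 genes) stayed under 20 CPM, and none of the markers was at 0 in all libraries. The part of these cells in the changes of Etv4, Etv5, Dusp4 and Dusp5 was not tested.

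The next comparison asked whether the NR effect differed between LT-HSCs and ST-HSCs. No member was called in the test of the difference of the NR effects (edgeR interaction, 0 of 10, where 0.0101% of all genes tested were called; DESeq2 0). At an unadjusted p under 0.05 there were 2, Dusp5 and Dusp4, where 6.06% of all genes tested were. For Dusp5 the effect in LT-HSCs minus that in ST-HSCs was -0.50 on the log2 scale (95% interval -1.0002 to -0.0095, adjusted p = 0.82), and for Dusp4 -0.25 (-0.49 to -0.005, adjusted p = 0.82). The difference was 0.24 for Etv4 (-0.32 to 0.80) and 0.12 for Etv5 (-0.11 to 0.35), both with adjusted p = 1. Over all 10 genes it ran from -0.50 to 0.35.

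The levels of several brakes differed between LT-HSCs and ST-HSCs. This comparison shares libraries with those above but sets the cell types against each other within 1 culture condition. In control culture Dusp4 and Spry4 were higher in LT-HSCs and Dusp6 lower, so 2 of 10 were called higher and 1 lower, where 3.51% and 1.5% of all genes tested were. With NR, Dusp4, Spry4 and Etv5 were higher in LT-HSCs and Dusp6 lower (3 and 1 of 10, where 3.8% and 2.27% of all genes were). The lymphoid marker sums given above were lower in LT-HSCs than in ST-HSCs in both conditions and the erythroid sums higher, and their part in these differences was not tested.

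Dusp4 showed the clearest difference. In control culture it had 55.5, 56.4 and 59.9 CPM in LT-HSCs, against 33.0, 36.6 and 32.9 CPM in ST-HSCs. The log2 difference was 0.74 ± 0.08 (edgeR adjusted p = 8.98e-05) in control and 0.50 ± 0.08 (edgeR adjusted p = 0.00156) with NR. It was called with each of the 12 libraries left out in turn and under the 6 other settings, in both conditions.

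Spry4 was higher in LT-HSCs by 0.83 ± 0.21 in control culture (edgeR adjusted p = 0.0375) and 0.85 ± 0.21 with NR (edgeR adjusted p = 0.0268), or ratios of 1.78 and 1.81. The control LT-HSC libraries (13.0 to 14.1 CPM) all lay above the control ST-HSC libraries (6.85 to 9.04 CPM). The lowest NR LT-HSC library (11.10 CPM) was close to the highest NR ST-HSC library (11.07 CPM). Dusp6 was lower in LT-HSCs by a small margin, with a log2 difference of -0.26 ± 0.07 in each condition (edgeR adjusted p = 0.0475 in control and 0.0415 with NR). Etv5 was higher in LT-HSCs with NR (0.33 ± 0.08, edgeR adjusted p = 0.0191). In control its difference was 0.21 ± 0.07 (edgeR adjusted p = 0.169). Etv4, the gene that moved most with NR, had log2 differences of 0.13 ± 0.17 in control and 0.37 ± 0.19 with NR, and its libraries overlapped.

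The calls of Spry4, Dusp6 and Etv5 depended on single libraries. In control culture Dusp4 was the only member called without LT-HSC sample 1, 2 or 3 or ST-HSC sample 1 or 3. With NR 1 member was called without LT-HSC sample 2, and 2 without LT-HSC sample 3, ST-HSC sample 1 or ST-HSC sample 3. Etv5 lost its call there without LT-HSC sample 1 or 2 or ST-HSC sample 3, with log2 differences of 0.28 to 0.41. In each condition Dusp6 kept its call in only 2 of the 12 fits that each left out 1 library. Without the 2 libraries rich in unassigned reads 2 members were called with NR, and Spry4 was at 0.57 (edgeR adjusted p = 0.184; 0.000673 to 0.184 over the 6 other settings). Dusp6 was then at -0.23 in control (edgeR adjusted p = 0.0659; 0.00227 to 0.262 over the 6 settings) and -0.27 with NR (edgeR adjusted p = 0.0845; 0.000502 to 0.134).

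**Figure D4:**
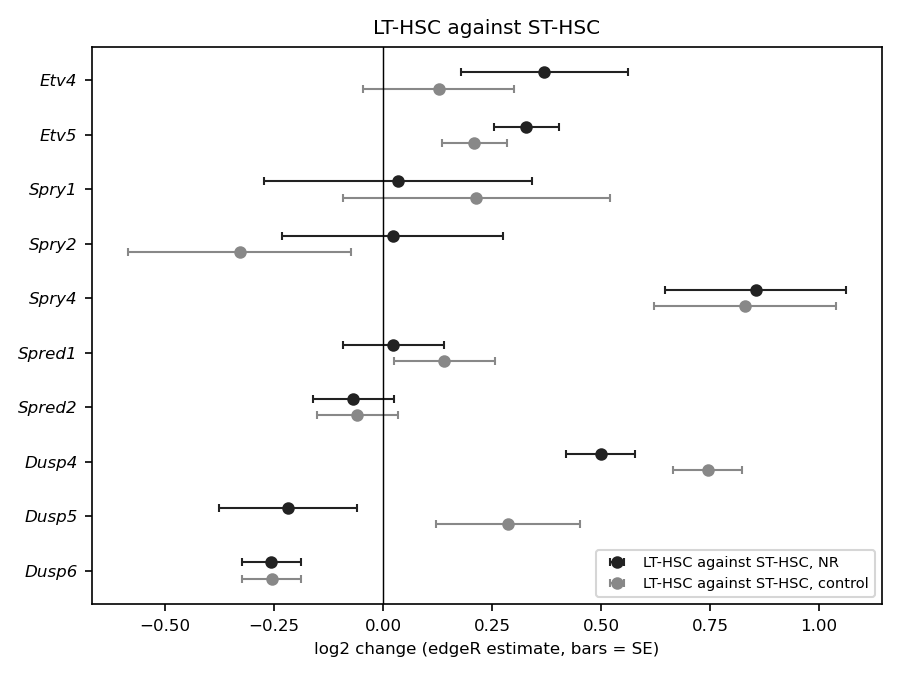
Log2 difference of LT-HSCs against ST-HSCs (horizontal axis, edgeR estimate with SE bars) for the 10 genes, with NR (black) and in control culture (grey). Spry4 and Dusp4 lie to the right of 0 in both conditions and Dusp6 lies at -0.26 in both.

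The RNA of the sort marker genes was read after the 2 days of culture. In control culture Cd34 was lower in LT-HSCs than in ST-HSCs (259 ± 11.5 against 626 ± 18.7 CPM, mean ± SD, n = 3). Slamf1, which encodes CD150, was at 39.0 ± 4.17 CPM in control LT-HSCs and 18.9 ± 1.29 CPM in control ST-HSCs. Kit was abundant in every group, at 1544 ± 149 CPM in NR LT-HSCs, 1444 ± 40.5 CPM in control LT-HSCs, 1524 ± 58 CPM in NR ST-HSCs and 1376 ± 47.0 CPM in control ST-HSCs. Ly6a, which encodes Sca1, was at 37.6 ± 9.38 CPM in control LT-HSCs and 6.23 ± 1.00 CPM in control ST-HSCs. Cd48 was at 0.830 ± 0.188 and 5.06 ± 1.19 CPM in the same 2 groups. Sorting for Sca1, CD150 and CD48 was the same for both populations. Yet Ly6a and Slamf1 were higher, and Cd48 lower, in control LT-HSCs than in control ST-HSCs.

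Beyond the 10 genes, the rest of the pathway was described with 4 lists: the cascade from KIT and FLT3 to ERK (20 genes tested), other brakes (21), other ERK-induced genes (18) and kinases and transcription factors that act with or under ERK (18). In LT-HSCs with NR the cascade had 0 genes higher and 2 lower, brakes 2 and 1, induced genes 3 and 2, and effectors 0 and 0 (edgeR; 7, 3, 7 and 4 genes had an unadjusted p under 0.05, and DESeq2 called 4, 3, 6 and 4). Median log2 changes were -0.02, 0.07, 0.32 and 0.10, beside 0.04 over all genes tested. In ST-HSCs these lists had 1 and 4, 3 and 1, 6 and 1, and 3 and 1 genes higher and lower, with medians of -0.03, -0.10, 0.40 and 0.04 beside -0.03 over all genes. Over the 77 genes tested in the 4 lists, 10 were called in LT-HSCs and 20 in ST-HSCs. In LT-HSCs 6.49% were higher and 6.49% lower, against 2.38% and 7.58% of all genes tested. In ST-HSCs 16.9% were higher and 9.09% lower, against 5.82% and 11.1% of all genes. Without NR LT-HSC sample 2 or control LT-HSC sample 1 or 3 the number in LT-HSCs was 6. The lists were chosen with earlier results of these data known, so nothing is read from these counts and shares.

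In the cascade, the RAS gene Nras fell by 0.28 ± 0.07 on the log2 scale in LT-HSCs and by 0.44 ± 0.07 in ST-HSCs. Ptpn11, which encodes the phosphatase SHP2 that links receptors to RAS, fell by 0.45 ± 0.08 in LT-HSCs and 0.40 ± 0.08 in ST-HSCs. The RAF kinase genes Araf and Braf fell by 0.23 ± 0.06 and 0.33 ± 0.09 in ST-HSCs, and were named after their values were seen. Sos2, an exchange factor that activates RAS, rose by 0.44 ± 0.12 in ST-HSCs. Kit had log2 changes of 0.10 ± 0.06 in LT-HSCs and 0.15 ± 0.06 in ST-HSCs and was not called.

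Among the brakes, Sh2b3 (LNK), an adaptor that restrains KIT and cytokine receptor signalling in HSCs, rose by 0.68 ± 0.08 in LT-HSCs and 0.67 ± 0.08 in ST-HSCs. Its level was 134 ± 13.3 CPM in NR LT-HSCs and 83.5 ± 4.95 CPM in control LT-HSCs, and 102 ± 7.22 CPM in NR ST-HSCs and 64.6 ± 1.21 CPM in control ST-HSCs (mean ± SD, n = 3). Dok2, an adaptor that recruits a RAS inhibitor, rose by 0.40 ± 0.08 and 0.33 ± 0.08, and its relative Dok1 rose by 0.38 ± 0.10 in ST-HSCs. Pebp1, whose product holds RAF inactive, fell by 0.34 ± 0.07 and 0.42 ± 0.07.

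Among other induced genes, the AP-1 member Fosl1 rose by 0.45 ± 0.11 in LT-HSCs and 0.71 ± 0.11 in ST-HSCs. Ier3, an early response gene, rose by 0.49 ± 0.12 and 0.64 ± 0.12, and Plaur, the urokinase receptor gene, by 0.45 ± 0.12 and 0.68 ± 0.12. Those called lower were the cyclin D1 gene Ccnd1, at -0.31 ± 0.07 in LT-HSCs and -0.43 ± 0.07 in ST-HSCs, and Myc, at -0.44 ± 0.07 in LT-HSCs. Both were named after their values were seen. Myc was at -0.22 ± 0.07 in ST-HSCs and not called there. Egr1, an immediate early gene, had changes of 0.32 ± 0.26 and 0.47 ± 0.27 that were not called. Of the effectors in ST-HSCs, Ets1 fell by 0.50 ± 0.15, and Etv3, which encodes an ETS-family repressor, and the kinase gene Rps6ka3 (RSK2) rose by 0.45 ± 0.09 and 0.40 ± 0.12. In ST-HSCs each of the 4 lists held genes called in both directions.

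**Figure D5:**
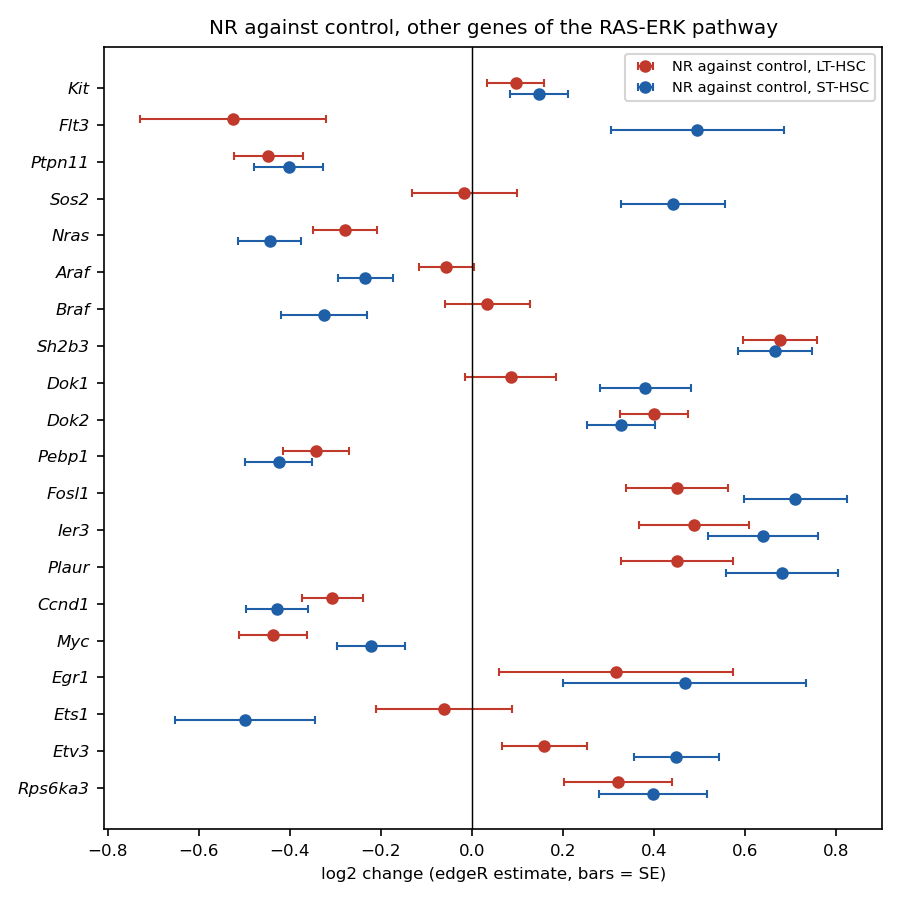
Log2 change of NR against control (horizontal axis, edgeR estimate with SE bars) for other genes of the RAS-ERK pathway, in LT-HSCs (red) and ST-HSCs (blue), ordered from receptors to effectors. Sh2b3 lies at 0.68 and 0.67, while Nras, Ptpn11 and Pebp1 lie left of 0 in both cell types.

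In LT-HSCs against ST-HSCs, 9 genes of these 4 lists were called in control culture and 10 with NR. In control culture 9.09% were higher and 2.6% lower, against 3.51% and 1.5% of all genes tested, and with NR 7.79% and 5.19%, against 3.8% and 2.27%. Flt3, the FLT3 receptor gene, was at 12.8 ± 0.835 CPM in control LT-HSCs and 30.3 ± 5.79 CPM in control ST-HSCs, a log2 difference of -1.25 ± 0.20 (edgeR adjusted p = 0.0018), and of -2.27 ± 0.20 with NR. Egr1 was higher in LT-HSCs by 1.25 ± 0.27 in control and 1.10 ± 0.26 with NR, and Ccnd1 by 0.69 ± 0.07 and 0.81 ± 0.07. Sh2b3 was higher in LT-HSCs by 0.37 ± 0.08 and 0.38 ± 0.08. Dok1 (0.42 ± 0.10) and the MEK1 gene Map2k1 (0.35 ± 0.07) were higher in control culture. With NR, Ets1 (0.94 ± 0.15) and Ets2 (0.45 ± 0.11) were higher and Sos2 (-0.43 ± 0.12) was lower. Without LT-HSC sample 1, 2 or 3 the number in control culture was 5, 5 and 3, and without ST-HSC sample 1, 2 or 3 it was 4, 4 and 5. With NR it was 5 without LT-HSC sample 1, 6 without LT-HSC sample 2 and 4 without ST-HSC sample 1.

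The genes whose levels followed each member most closely were found by the mean absolute difference of log2 CPM over the 12 libraries, each gene centred on its own mean, among 10017 genes at 5 CPM or more. For Etv4 these were Asns (asparagine synthetase, 0.32), Pnck (a calcium/calmodulin kinase, 0.35), Slc14a2 (a urea transporter, 0.36), Mthfd2 (a mitochondrial folate enzyme, 0.39) and Gpt2 (mitochondrial alanine aminotransferase, 0.39), where the median gene differed by 1.02. Etv5 was closest to Gnpat (0.05), Dyrk2, Tmem260, Wdr41 and Nomo1 (each 0.06), with a median of 0.20. Dusp6 was closest to Scarb1 (0.04), Desi1, Mapk8, Scyl3 and Cdt1 (each 0.05), with a median of 0.18. The libraries share groups and depth, so these are descriptions.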

How the data were processed

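The deposited values are raw read counts per Ensembl gene, 1 column per library. The submitters' processing notes name FastQC 0.11.2, STAR 2.5.0b for alignment and, for counting, HTSeq 0.6.1. Libraries came from 2.5 ng RNA by SMART-seq v4 and Nextera XT, per the labels' protocols. Genome build, annotation and strand setting were not given in the sources used here. Of the columns, 0 were unused. HTSeq's rows for unassigned reads (8.69% to 28.5% in no feature, 3.30% to 4.38% ambiguous) were left out of totals and tests.

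Symbols came from GENCODE M21 (53274 of 53465 genes matched), upstream sequences from RefSeq (GRCm38.p6). CPM values are counts per 1000000 gene counts, with totals scaled by TMM factors. edgeR 4.0.16 (quasi-likelihood, two-sided) was fitted to all 12 samples and 4 group means after filterByExpr (minimum count 10, minimum total 15), which kept 19830 genes. Calls used a Benjamini-Hochberg adjusted p under 0.05 over all genes tested in a comparison. The labels name no batch. Replicates differed by more than counting noise (chi-square over its degrees of freedom 5.46 to 32.3), so none was a duplicate. The fit was tested on simulated data.

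The members, lists and tests were chosen with earlier results of these data known. Named genes were the members, then from each pathway list up to 3 called genes with the largest log2 change and a mean of at least 5 CPM in each NR comparison and up to 2 in the others, the 5 likest genes of Etv4, Etv5 and Dusp6, and sort markers. Other settings were relative log expression factors, DESeq2 1.42.0, no low-count filter, the sample number as a block, a covariate for the unassigned share (logit), dropping both libraries above 20% unassigned reads, and each library left out in turn with the same genes tested.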

Additional observations from a re-analysis of the deposited data

How the results depend on the processing

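Of 792 values of single members under the 18 alternatives, 11 values between cell types changed sign. For NR against control, sign changes were counted only for called members, and none of these changed sign. Members not called with NR did so too. Without the 2 libraries rich in unassigned reads, Spry1 in ST-HSCs went from -0.21 to 0.06 and Spry2 from 0.04 to -0.05. Calls ended in 43 of the 792, of which 37 were between cell types and 6 with NR against control, and 1 was gained. Only members called with the main settings could lose a call, so 43 of 792 is not the rate of loss. The calls of Dusp4 between cell types held under these 18. Members called were 2, 4, 3, 4 and 0 in NR against control LT-HSCs and ST-HSCs, LT-HSCs against ST-HSCs without and with NR, and the difference of NR effects. With 1 library left out they were 1 to 2, 3 to 4, 1 to 3, 1 to 3 and 0, and without the 2 libraries rich in unassigned reads 2 with NR between cell types. In that comparison Spry1 (-0.30), Spry2 (-0.0081) and Spred1 (-0.017), none of them called, changed sign without these 2 libraries. With 1 library left out they ran from -0.20 to 0.27, -0.15 to 0.16 and -0.0271 to 0.0654, and Etv4 in control culture from -0.0721 to 0.27. Other genes of the pathway lists numbered 17 with DESeq2 against 10 for NR in LT-HSCs, and 1 without the low-count filter and 1 with the block against 0 for the difference. With 1 library left out they were 6 to 10 for NR in LT-HSCs, 3 to 10 between cell types in control and 4 to 10 with NR.

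Over the whole table, genes higher with NR in LT-HSCs (472) were 712 with relative log expression factors, 1137 with DESeq2 and 262 to 512 with 1 library left out. Those lower (1503) were 944 without the filter, 877 without the 2 libraries and 835 to 1505 with 1 left out. In ST-HSCs 2049 were higher with DESeq2 (1155), and those lower (2193) were 1321 without the filter, 1229 without the 2 libraries and 1009 to 2423 with 1 left out. Between cell types in control 1091 were higher with DESeq2 (696), and those lower (298) were 541 with DESeq2, 554 with the covariate and 165 to 368 with 1 left out. With NR those lower (451) were 975 with DESeq2 and 700 with the covariate. For the difference of NR effects (2) there were 140 with DESeq2, 43 without the filter, 15 with the block, 10 with the covariate and 0 to 17 with 1 left out. The cause of these shifts was not tested.

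The numbers pair samples only in part: 10 of 12 same-numbered pairs correlated above 0.1 in their deviations from the group means (-0.23 to 0.84), and in 17 of 24 matches of a sample with another group the best was its own number. With the block 2, 4, 3, 4 and 0 members were called, as without it. Depth limits Spry1 and Spry2 most.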

Other observations

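Flt3, which encodes the receptor of the Flt3 ligand in the medium, differed in opposite directions with NR. It had 8.57, 6.62 and 11.5 CPM in NR LT-HSCs, against 11.96, 12.8 and 13.6 CPM in control LT-HSCs, and 45.7, 33.1 and 49.4 CPM in NR ST-HSCs, against 28.1, 25.9 and 36.8 CPM in control ST-HSCs. The log2 changes were -0.53 ± 0.20 and 0.50 ± 0.19 (edgeR estimate ± SE). Neither was called, with edgeR adjusted p = 0.143 in LT-HSCs and 0.1 in ST-HSCs. The difference of -1.02 between the effects (95% interval -1.63 to -0.42, edgeR adjusted p = 0.481 over all genes tested) was not called either.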
